A study of Mus musculus with 18 samples.

Results

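The Vmn2r genes encode the vomeronasal type 2 receptors of the mouse. Members were chosen as protein-coding genes whose symbol is Vmn2r followed by a number, which gave 123 genes in the RefSeq gene table of GRCm38.p6. Of these, 122 could be placed on an assembled chromosome and were scored, among 21774 protein-coding genes scored in all. The remaining member, Vmn2r122, has scaffold coordinates in that table and has no value here. A further 3 genes with a numbered Vmn2r symbol are annotated as pseudogenes and were not counted as members.

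Open chromatin was measured by ATAC-seq, in which a transposase cuts and tags accessible DNA, in a mouse embryonic stem cell line named dTKO. Cells were collected 0, 3, 6, 12, 24 and 48 h after auxin (100 µg/ml) and dTAG13 (0.5 µM) were added, 2 agents that make cells degrade suitably tagged proteins, with 3 libraries from separate biological repeats at each time, or 18 together. The question was which chromatin opens when the H3K9 methyltransferases are removed, with 0 h as the baseline. Every group, 0 h included, is labelled with the same line, genotype and agents (Suv39h1fl/fl, Suv39h2-/-, Setdb1fl/fl, + auxin + dTAG13), so the deleted Suv39h2 is shared by the baseline. Only 1 cell line was used, no parental or untreated line is among the labelled samples, and the labels do not say which proteins carry a tag.

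The measurements are the positions of 166066 peaks merged over all libraries, of which 165744 lie on assembled chromosomes. They cover 117 Mb and have a median width of 578 bp. The list carries no read count, height, score or library name, so the depth is unknown and no gene has a value per library or per time. Everything below is therefore a description of where peaks lie, without a test between groups. All intervals are 95% intervals for counting error only (Wilson for shares, exact Poisson for densities), and neighbouring genes that can share a peak are not independent. Where a share was 0, the limit it allows is 3 counts divided by the number scored, an approximate bound and not the Wilson one. Where a density was 0, the limit is the upper end of its Poisson interval. A peak absent at a gene means that none was listed there in any of the 18 libraries' merged calls, not that the DNA was closed.

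Of 12 marker genes of embryonic stem cells, among them Pou5f1, Nanog and Sox2, 12 had a peak within 500 bp of an annotated end, against 71.4% of all protein-coding genes. The same held for 7 of 7 markers of vomeronasal sensory neurons, 5 of 8 of fibroblasts and 4 of 8 of primitive endoderm. Markers of the labelled cells and of vomeronasal neurons were thus not told apart by this score, so the label of embryonic stem cells could not be tested with it.

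Type 2 vomeronasal receptors are family C G protein-coupled receptors with a large extracellular domain that binds peptide and protein pheromones. They are made by sensory neurons in the basal layer of the vomeronasal organ, where they signal through the G protein subunit Gnao1 and the channel Trpc2. Each neuron uses very few members of the family, and the genes lie in tandem arrays of close copies. In olfactory neurons, H3K9 methylation is known to mark silent genes of another family, the olfactory receptors.

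Annotated lengths ran from 8397 bp (Vmn2r129) to 142676 bp (Vmn2r1), with a median of 24640.5 bp. With gaps of up to 1 Mb between neighbours, 116 members formed 12 clusters and 6 stood alone (Vmn2r18, Vmn2r28, Vmn2r118, Vmn2r120, Vmn2r121 and Vmn2r129). A RefSeq promoter window, from 250 bases before to 50 bases after a start, was listed for 116 members, 39 on the plus and 77 on the minus strand. No window was listed for Vmn2r5, Vmn2r21, Vmn2r46, Vmn2r47, Vmn2r76 and Vmn2r77. Vmn2r29 had 2 listed starts, which makes 117 windows.

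The sequences below show the DNA just upstream of the only listed start with a peak (Vmn2r29) and of 4 others without one. Vmn2r26 is a receptor for peptides that bind MHC class I molecules, Vmn2r88 a receptor for hemoglobin, Vmn2r116 the receptor for the tear peptide Esp1, and Vmn2r62 has a promoter window identical to that of Vmn2r126. Each is the 250 bases before the start, 5′ to 3′ on the gene's strand, from RefSeq's GRCm38.p6 sequence, with every CG dinucleotide in capitals.
Vmn2r29, chr7:7278290-7278539, minus strand: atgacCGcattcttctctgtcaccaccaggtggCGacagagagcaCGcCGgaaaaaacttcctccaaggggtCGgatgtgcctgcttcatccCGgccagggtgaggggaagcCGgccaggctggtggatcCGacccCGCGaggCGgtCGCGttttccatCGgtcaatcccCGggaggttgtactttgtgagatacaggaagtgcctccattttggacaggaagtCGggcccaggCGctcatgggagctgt
Vmn2r26, chr6:124024508-124024757, plus strand: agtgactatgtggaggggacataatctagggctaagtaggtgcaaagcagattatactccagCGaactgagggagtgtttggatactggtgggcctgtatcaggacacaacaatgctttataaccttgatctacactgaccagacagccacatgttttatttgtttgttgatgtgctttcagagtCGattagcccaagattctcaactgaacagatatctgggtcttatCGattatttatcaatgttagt
Vmn2r88, chr14:51410751-51411000, plus strand: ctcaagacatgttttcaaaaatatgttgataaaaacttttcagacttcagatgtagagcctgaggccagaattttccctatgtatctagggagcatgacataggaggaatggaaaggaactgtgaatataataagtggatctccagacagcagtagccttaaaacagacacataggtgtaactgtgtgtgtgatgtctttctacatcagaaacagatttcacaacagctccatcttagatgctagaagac
Vmn2r116, chr17:23384553-23384802, plus strand: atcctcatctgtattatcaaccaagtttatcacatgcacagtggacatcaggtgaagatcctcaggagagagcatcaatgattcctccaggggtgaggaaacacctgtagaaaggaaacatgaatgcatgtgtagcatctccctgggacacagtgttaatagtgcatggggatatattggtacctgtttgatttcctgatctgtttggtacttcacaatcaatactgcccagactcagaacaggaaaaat
Vmn2r62, chr7:42793497-42793746, minus strand: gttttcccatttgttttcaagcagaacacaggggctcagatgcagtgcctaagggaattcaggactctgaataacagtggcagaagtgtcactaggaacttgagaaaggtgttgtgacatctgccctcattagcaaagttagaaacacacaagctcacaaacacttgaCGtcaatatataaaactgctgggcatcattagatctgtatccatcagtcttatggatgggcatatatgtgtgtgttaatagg

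The Vmn2r29 sequence holds 17 CG dinucleotides, against 3 for Vmn2r26, 1 for Vmn2r62 and 0 for Vmn2r88 and Vmn2r116. Its start lies under a peak of 1014 bp at chr7:7277433-7278446. From the other starts the nearest peak was 3.44 kb away for Vmn2r26, 3.6 kb for Vmn2r62, 16.8 kb for Vmn2r88 and 47.4 kb for Vmn2r116. The sequences were chosen so that only Vmn2r29 had a peak at its start, so on their own they show no link between CG content and peaks.

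Across all 117 windows of 300 bases the median was 1 CG dinucleotide and 38% G or C, whereas all protein-coding genes had medians of 13 and 56.3%. No CG at all was found in 33 Vmn2r windows (28.2%), against 4.63% of all windows. The outer window of Vmn2r29 had 23, and the next highest count, 4, was shared by 7 windows (Vmn2r1, Vmn2r20, Vmn2r53, Vmn2r80, Vmn2r81, Vmn2r82 and Vmn2r121). That window was also the one least like any other member's, with an identity of 46.3% to its nearest. The inner start of Vmn2r29 lies 31 kb inside the gene, has 0 CG dinucleotides, is 95.3% identical to the window of Vmn2r35 and is 23.7 kb from a peak. The TATA motif TATAAA was found on either strand, including overlaps, in 27 Vmn2r windows (23.1%), against 12.6% of all windows, 42.4% of Vmn1r windows and 41.2% of Olfr windows. A match to these letters is no evidence of a used promoter.

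At listed starts, 1 of 116 Vmn2r genes had a peak within 500 bp (0.862%, 0.152 to 4.72%), against 70.9% of all 17492 protein-coding genes with a listed start. The CG content of the windows moved with this difference. Among windows of genes other than Vmn2r, Vmn1r and Olfr, 11.1% of those without CG had a peak at the start, as did 15.7% with 1 or 2, 35.9% with 3 to 5 and 99% with 11 or more. Of the Vmn2r windows, 0 of 33 without CG had a peak, which allows up to 9.09%, as had 0 of 62 with 1 or 2, which allows up to 4.84%. Likewise 0 of 21 with 3 to 5 had one, which allows up to 14.3%, and the single window with 11 or more, that of Vmn2r29, had one. Vmn2r starts with few CG dinucleotides thus had fewer peaks than the other genes' starts in the same range of CG. Low shares at listed starts were not particular to Vmn2r. The families left out of that comparison had a peak at 4 of 205 Vmn1r genes (1.95%) and 24 of 940 Olfr genes (2.55%). Their windows also had a median of 1 CG dinucleotide. The part of CG content in the family's share was not tested further.

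**Figure D1:**
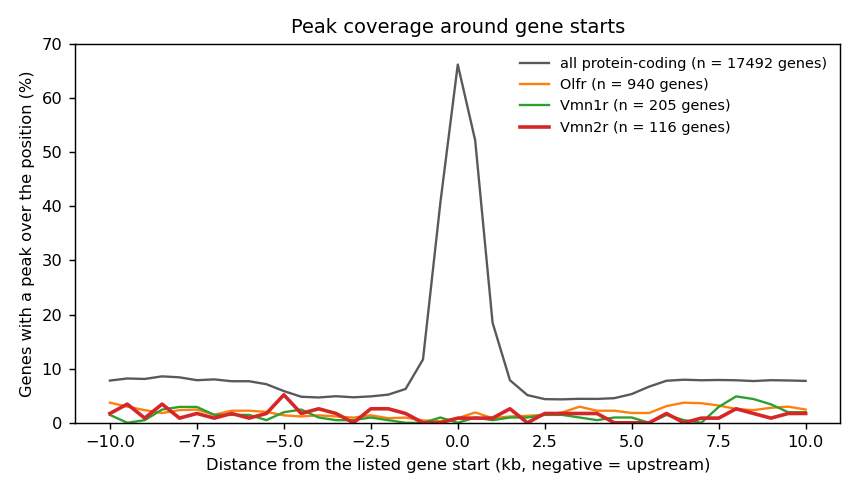
Percent of listed starts covered by a peak (vertical axis) at distances in kb from the start (horizontal axis, steps of 500 bp, upstream negative), for 116 Vmn2r, 205 Vmn1r, 940 Olfr and 17492 protein-coding genes. At the start itself 66.2% of all genes were covered against 0.862% of Vmn2r genes, whose highest value within 10 kb was 5.17%.

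The plot of coverage around starts shows no summit at the Vmn2r starts. From 5 to 10 kb away a mean of 1.57% of Vmn2r positions lay under a peak, against 1.8% for Vmn1r, 2.51% for Olfr and 7.63% for all protein-coding genes. Coverage of Vmn2r genes was thus below that of all genes near the start as well as at it.

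With both annotated ends scored, 6 of 122 Vmn2r genes had a peak within 500 bp (4.92%, 2.27 to 10.32%), against 71.4% of all protein-coding genes. The share was close to that of the other receptor families of the nose, with 10 of 228 Vmn1r genes (4.39%, 2.4 to 7.88%) and 55 of 1105 Olfr genes (4.98%, 3.84 to 6.42%). With windows of 2000 bp 21 members had one (17.2%), against 79.7% of all genes, and with windows of 250 bp 3 had one (2.46%), against 68.8%. Of the 6, Vmn2r29 is the member with its peak at a listed start. For Vmn2r23 (446 bp), Vmn2r62 (783 bp), Vmn2r78 (362 bp) and Vmn2r126 (729 bp) the peak lay at the far end of the gene. For Vmn2r2 a peak of 1919 bp lay at its annotated 5′ end, chr3:64170787-64172705, but its listed start is 33.4 kb inside and 15.1 kb from a peak. This Vmn2r2 peak also lies inside the annotated span of Vmn2r1, which encloses Vmn2r2. Vmn2r1 and Vmn2r2 belong to the small group of type 2 receptors that many basal neurons make together with another member.

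Any peak overlapped 43 of 122 Vmn2r genes (35.2%), against 81.6% of protein-coding genes. The median distance from a member to its nearest peak was 4.23 kb (95% interval 1.97 to 8.31 kb), whereas it was 0 for all protein-coding genes, 12.8 kb for Vmn1r and 11.7 kb for Olfr genes. Vmn1r and Olfr genes are shorter, with median lengths of 924 and 951 bp, and length enters this distance. Among members that no peak overlapped, other than the end members above, the closest were Vmn2r86 (0.773 kb), Vmn2r44 (1.3 kb) and Vmn2r96 (1.65 kb). The farthest were Vmn2r34 (47.4 kb), Vmn2r32 (48.3 kb) and Vmn2r103 (71.9 kb), and 45 members lay over 10 kb from any peak. Another 5 members, Vmn2r12, Vmn2r25, Vmn2r63, Vmn2r85 and Vmn2r87, were overlapped within 2 kb of an end only.

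**Figure D2:**
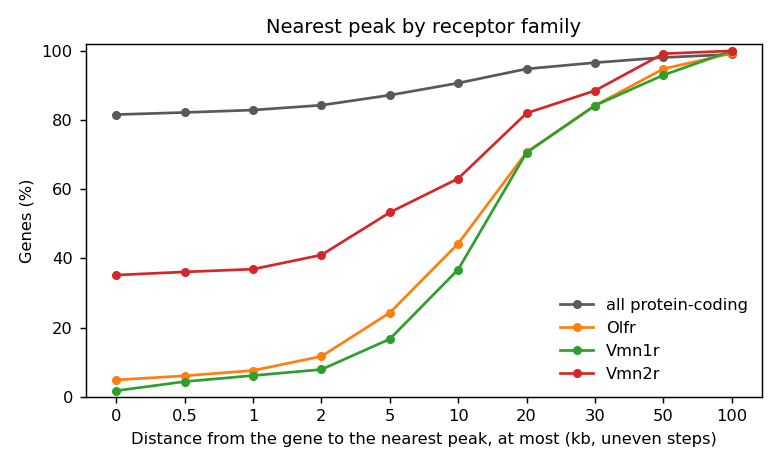
Percent of genes (vertical axis) whose nearest peak lies within the distance on the horizontal axis (kb, uneven steps), for the 3 receptor families and all protein-coding genes. Within 10 kb lay a peak for 63.1% of Vmn2r, 36.8% of Vmn1r, 44.3% of Olfr and 90.7% of all genes.

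Gene bodies were scored without 2 kb at both ends. A peak midpoint lay in the body of 38 of 122 members (31.1%, 23.6 to 39.8%), against 70.5% of protein-coding genes over 4 kb. Among genes between the lower and upper quartile of Vmn2r lengths (16412 to 33352.8 bp) the shares were 16 of 60 (26.7%) and 79.0%. The gap was therefore no smaller among genes of like length. The 68 distinct body peaks amounted to 25.1 peaks per Mb (19.5 to 31.8), against 69.4 (68.9 to 69.9) over all genes, and 18.2 against 104 at matched length. Body peaks were of ordinary width, with a median of 576 bp and a range from 213 to 1982 bp. Members with a body peak had a median length of 34.4 kb and those without one 18.6 kb.

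Body peaks were spread thinly over the family. No body peak was found in 84 members, 21 had 1, 10 had 2 and 5 had 3. Vmn2r35 had 4, all narrow (257 to 346 bp), and Vmn2r1 had 10, of which 3 also lie in or at the end of the enclosed Vmn2r2 and 2 at the pseudogene Gm18294. The 5 with 3 were Vmn2r21, Vmn2r22, Vmn2r24, Vmn2r29 and Vmn2r91. Those with 2 were Vmn2r2, Vmn2r13, Vmn2r19, Vmn2r20, Vmn2r60, Vmn2r62, Vmn2r75, Vmn2r97, Vmn2r100 and Vmn2r126. A single body peak lay in Vmn2r3, Vmn2r11, Vmn2r26, Vmn2r27, Vmn2r38, Vmn2r53, Vmn2r55, Vmn2r56, Vmn2r57, Vmn2r58, Vmn2r59, Vmn2r65, Vmn2r78, Vmn2r79, Vmn2r82, Vmn2r92, Vmn2r101, Vmn2r106, Vmn2r109, Vmn2r117 and Vmn2r118. In Vmn2r26 it was 1228 bp wide and lay 30.1 kb from the 5′ end, while Vmn2r88 and Vmn2r116 had no peak over the gene.

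Between the members of a cluster, 457 peaks in 10341 kb gave 44.2 peaks per Mb (40.2 to 48.4). This was above the density in Vmn2r bodies and below the 51.2 found between protein-coding genes of all chromosomes. The DNA between members holds other protein-coding genes, however, and without those genes and 2 kb around them its density was 42.4. The 51.2 leaves out genes but not the 2 kb around them, so the 42.4 is not directly comparable with it. The order of the density between members against 51.2 turned when neighbours up to 2 Mb apart were joined (63 per Mb, other genes included). The 250 kb on each side of the clusters held 79 per Mb (72 to 86.4). Flanks were denser than the DNA between members in 9 of 12 clusters, and bodies were less dense than the DNA between members in 10 of 12. Some of these 10 rest on little body DNA. Bodies from Vmn2r84 to Vmn2r87 had 0 peaks in 0.039 Mb, which allows up to 94.5 per Mb. Those of Vmn2r88 and Vmn2r89 had 0 in 0.00986 Mb, which allows up to 374. Peaks thus became sparser from the flanks to the DNA between members and on to the receptor bodies, summed over the clusters.

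**Figure D3:**
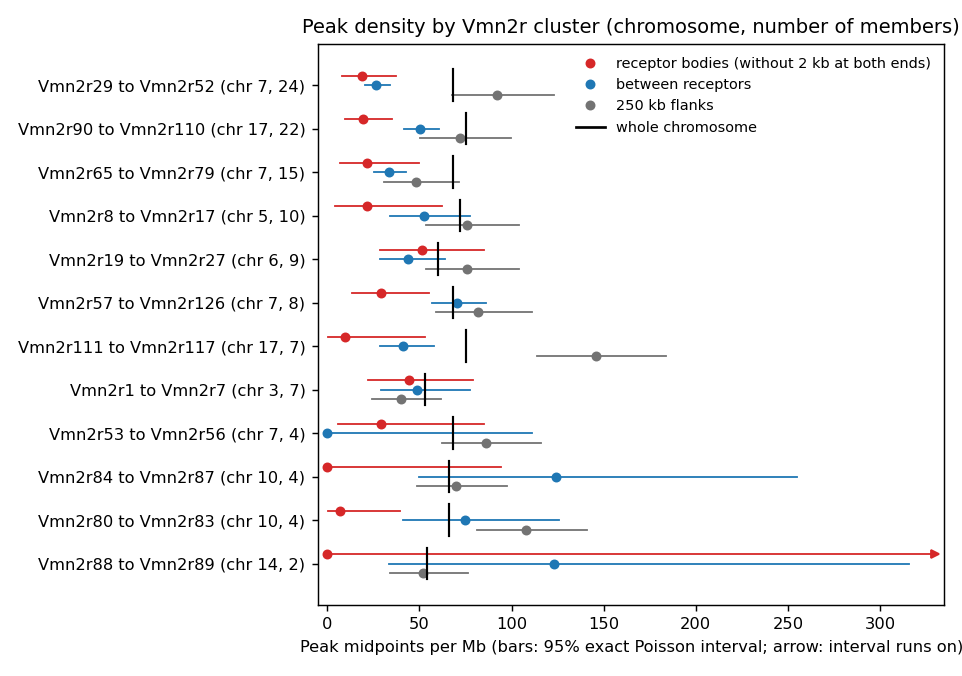
Peaks per Mb (horizontal axis) for each of the 12 clusters of 2 or more members (vertical axis, with chromosome and number of members) in receptor bodies (red), between receptors (blue) and in flanks of 250 kb (grey). Bars are exact 95% Poisson intervals for counting error, an arrow marks an interval that runs past the axis, and a black line gives the whole chromosome. Body values lie left of the values between receptors in 10 of 12 clusters.

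The largest cluster, Vmn2r29 to Vmn2r52 on chromosome 7 with 24 members, had 18.8 peaks per Mb in bodies (8.14 to 37.1), 26.6 between members (20.5 to 33.9) and 92 in the flanks (67.4 to 123). Peaks overlapped 3 of its 24 members, against 81.6% of all protein-coding genes. The next largest, Vmn2r90 to Vmn2r110 on chromosome 17 with 22 members, had 19.5 in bodies and 50.4 between members (41.6 to 60.6), and peaks overlapped 7. The intervals between members do not overlap, so these arrays of like size differed by more than counting error. Their promoter windows also differ in how alike they are. The median identity of a window to its nearest other member was 99% in the first array, with the outer window of Vmn2r29, and 84.2% in the second. A run of 50 bases was shared with another member by 22 of 22 members in the first array, where either window of Vmn2r29 could count. In the second 4 of 22 shared one. The sources used here do not say how reads that fit several copies were placed. In the whole family, 74 of 116 members shared a run of 50 bases with another member, and 8 had a window identical to another's. Listed and absent peaks at near-identical members are therefore uncertain throughout, and the part of copy likeness in the densities was not tested.

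On chromosome 7, the 15 members from Vmn2r65 to Vmn2r79 had 21.4 peaks per Mb in bodies and 33.3 between members, and the 8 from Vmn2r57 to Vmn2r126 had 29.1 and 70.4. The 4 members from Vmn2r53 to Vmn2r56 had 3 body peaks and no peak in the 0.0331 Mb between them. On chromosome 17, the 7 members from Vmn2r111 to Vmn2r117, which hold the Esp1 receptor Vmn2r116, had 1 body peak (9.48 per Mb), 41.3 per Mb between members and 146 in the flanks. This was the highest flank density of all clusters. The 10 members from Vmn2r8 to Vmn2r17 on chromosome 5 had 21.3 and 52.6, and the 7 from Vmn2r1 to Vmn2r7 on chromosome 3 had 44.1 and 48.9. On chromosome 10, Vmn2r80 to Vmn2r83 had 7.13 and 74.8, and Vmn2r84 to Vmn2r87 had 0 and 124. On chromosome 14, Vmn2r88 and Vmn2r89 had 0 and 123, from only 4 peaks between them.

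The cluster on chromosome 6, Vmn2r19 to Vmn2r27 with the MHC peptide receptor Vmn2r26, had the highest body density of the 12 clusters. Peaks overlapped 8 of its 9 members, against 81.6% of all protein-coding genes, and the ninth, Vmn2r23, lay 0.17 kb from one. A body peak was present in 7, against 70.5% of protein-coding genes over 4 kb. Both counts are near the share of all genes. The bodies held 51.5 peaks per Mb (28.8 to 84.9) against 43.6 between members (28.5 to 63.9), intervals that overlap. Other clusters came near: peaks overlapped 7 of 8 members from Vmn2r57 to Vmn2r126, 6 of them with a body peak, and the bodies from Vmn2r1 to Vmn2r7 held 44.1 per Mb (22 to 78.9). Those from Vmn2r53 to Vmn2r56 held 29.2 (6.02 to 85.3), above the 0 between members. That 0 allows up to 111 per Mb, so these intervals overlap too. Without the 9 members on chromosome 6 the density in all other Vmn2r bodies was 21.9.

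In 3 of the 9 members of this cluster, the neighbours Vmn2r20, Vmn2r21 and Vmn2r22, peaks lay at like places. Distances below are from the annotated 5′ end to the middle of the peak. Vmn2r20 had peaks at -6.45 kb (280 bp wide), 3.4 kb (1982 bp) and 7.75 kb (550 bp). Vmn2r21, whose strand is not listed and was taken as minus like its neighbours Vmn2r20 and Vmn2r22, had them at -6.46 kb (316 bp), 3.4 kb (1953 bp), 7.78 kb (484 bp) and 26.5 kb (395 bp). Vmn2r22 had them at -6.94 kb (1459 bp), 3.48 kb (1973 bp), 8.01 kb (642 bp) and 26.6 kb (279 bp). The wide peak near 3.4 kb and the narrower one near 8 kb thus recurred in these 3 genes, for Vmn2r21 only on the assumed strand; on the plus strand its peaks inside the gene would lie at 14.4, 33.1 and 37.5 kb. The other 6 members had no such peaks. Inside the gene or at its end, peaks lay at 19.7 and 24.4 kb in Vmn2r19, 39.8 kb in Vmn2r23, 5.93, 14.9 and 31.4 kb in Vmn2r24, 28.7 kb in Vmn2r25, 30.1 kb in Vmn2r26 and 19.7 kb in Vmn2r27. The annotated snoRNA genes Gm25891 and Gm25065 lie at the peaks 26.5 and 26.6 kb into Vmn2r21 and Vmn2r22. Likewise the snoRNA genes Gm22833 and Gm22722 lie at the peaks at -6.45 kb of Vmn2r20 and -6.46 kb of Vmn2r21.

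A second set of copies on chromosome 7, Vmn2r62 and Vmn2r126, lie on opposite strands and have identical promoter windows. Vmn2r62 had peaks at -4.44 kb (1683 bp), 13.8 kb (573 bp), 18.2 kb (624 bp), 27.4 kb (406 bp), 29.8 kb (783 bp) and 37.1 kb (2348 bp). Vmn2r126 had them at -4.44 kb (1719 bp), 14 kb (418 bp), 18.5 kb (450 bp), 27.6 kb (420 bp), 30.1 kb (729 bp) and 37.2 kb (2102 bp). All 6 peaks of one gene thus had a counterpart in the other, including those past the gene's far end. These sets were chosen after their values were seen. Reads that fit both copies could be placed at either, so the copies are not independent measurements.

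**Figure D4:**
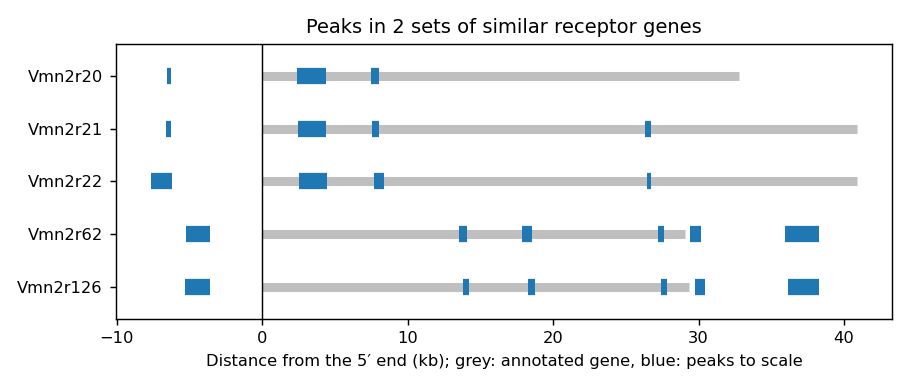
Peaks drawn as bars of their true width at their distance in kb from the annotated 5′ end (horizontal axis) for Vmn2r20, Vmn2r21 and Vmn2r22 on chromosome 6 and Vmn2r62 and Vmn2r126 on chromosome 7 (1 row per gene, the annotated gene as a grey bar). The peaks near 3.4 and 8 kb line up in the first 3 genes and all 6 peaks line up in the last 2.

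In the largest array a pair of peaks recurred between the receptor genes. Each pair had a wide peak of 1824 to 1867 bp and a narrow one of 558 to 734 bp whose middles were 5.91 to 6.07 kb apart. There were 7 such pairs, with the narrow peak on the high-coordinate side in 7 of 7, and successive wide peaks lay 269 to 520 kb apart. They include all 7 peaks between 1800 and 1900 bp in the array's 74 peaks. Over all chromosomes 1224 peaks had such a width. Of these, 56 (4.58%) had a narrow partner at such a distance, 7 in this array and 49 outside it. One of the others lay inside Vmn2r97 on chromosome 17, with peaks of 1865 and 667 bp. The pair was noticed in these data before it was counted. The limits for counting, 1800 to 1900 bp, 500 to 800 bp and 5.7 to 6.3 kb, enclose the pairs already seen. The array's pairs were thus sure to be counted, and its share cannot be set against that of all chromosomes.

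**Figure D5:**
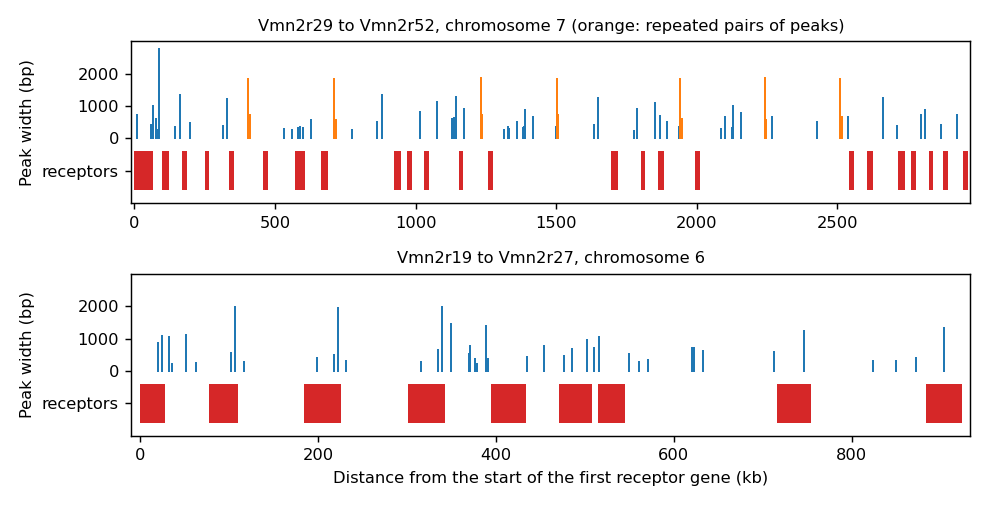
Receptor genes (red blocks) and peaks (upright lines whose height is the peak's width in bp) along the Vmn2r29 to Vmn2r52 array (upper panel) and the Vmn2r19 to Vmn2r27 cluster (lower panel), with distance in kb from the start of the first receptor gene on the horizontal axis and the 7 repeated pairs in orange. In the upper panel 65 of 74 peaks lie between receptor genes and peaks overlap 3 of 24 genes, while in the lower panel peaks overlap 8 of 9. Of all protein-coding genes peaks overlap 81.6%.

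Other genes inside the clusters were scored at their ends in the same way, beside the 71.4% of all protein-coding genes. Of the 116 clustered Vmn2r genes 6 (5.17%) had an end peak, as had 2 of 80 genes named Vmn2r-ps (2.5%). These are taken here as the receptor pseudogenes by name, though Vmn2r-ps130 is annotated as protein-coding. Vmn1r and Olfr genes had one in 2 of 17 cases (11.8%, 3.29 to 34.3%). Of the 24 other protein-coding genes 12 had one (50%, 31.4 to 68.6%), which is below the share of all genes. Among these, 6 of 7 zinc finger genes had one (Zfp40, Zfp141, Zfp788, Zfp945, Zfp975 and Zfp977, but not Zfp976). None of 6 formyl peptide receptor genes did, which allows up to 50%, and their nearest peaks were 1.9 kb (Fpr3) to 37.3 kb (Fpr-rs6) away. Some formyl peptide receptors are made in vomeronasal neurons. Clcn4, a chloride transporter gene beside Vmn2r29, had one. Within the clusters, receptor genes and receptor pseudogenes thus both had few end peaks, and the zinc finger genes had them at a share near that of all genes. Of the 457 peaks between members, 343 (75.1%) lay at no annotated gene.

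The genes that act with the receptors were scored the same way and read against the background share of 71.4%. Of 10 signalling genes of vomeronasal neurons, 9 had an end peak: the G protein subunits Gnao1, Gnai2, Gnb1 and Gng8, the phospholipase Plcb2, the calcium release channel Itpr3, the channels Trpc2 and Ano2, and B2m, the light chain of MHC class I molecules. The tenth, the chloride channel Ano1, had a peak at its listed start only. Of 12 transcription factors and other genes of sensory neurons 11 had one, including Tfap2e, which acts in basal vomeronasal neurons, and Bcl11b, and the exception was the hormone gene Gnrh1, 3.71 kb from a peak. Most genes of these lists thus had an end peak, as most protein-coding genes did.

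Partners that are themselves multigene families had few end peaks. None of 8 MHC class Ib genes (H2-M1, H2-M9 and the H2-M10 genes), which are made in basal neurons with type 2 receptors, had an end peak, which allows up to 37.5%. Their nearest peaks were 6.7 kb (H2-M10.2) to 34.9 kb (H2-M1) away. Of 15 scored Esp genes, which encode secreted pheromone peptides, 2 had one, Esp5 (284 bp) and Esp8 (714 bp). Esp1, the ligand of Vmn2r116, lay 14.7 kb from a peak, Esp15 lay 122 kb away, and Esp22 was not scored. Of 11 relatives in receptor family C that are encoded outside such arrays, 10 had an end peak, among them the calcium-sensing receptor Casr and the taste receptors Tas1r1, Tas1r2 and Tas1r3, and Gprc5d had none. At listed starts 5 of 9 of these relatives had a peak, with none at Gprc6a, Tas1r2, Tas1r3 and Gprc5d, against the 70.9% of all genes. With so few genes neither count is read against its background.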

How the data were processed

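ATAC-seq peaks of 18 libraries were deposited by the authors as 1 merged list of positions (chromosome, start, end and a name; no other value). Tools listed in the submitters' processing notes are MACS2 2.2.7.1, Bowtie2 2.4.2 and Trimmomatic 0.36, with the builds GRCm38 and mm10. Peak thresholds, merging, duplicates and insertion offsets are not given in the sources used here. Depth is unknown, no column of values for a library exists in it, and the planned test of later times against 0 h was not run.

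Genes came from the RefSeq table of GRCm38.p6, starts and strands from RefSeq promoter windows. A peak counted at an end when it overlapped a window of 500 bp either side by at least 1 bp; bodies and DNA between genes were scored by peak midpoint. Window identity used edlib 1.3.9.post1, with matplotlib 3.10.9, scipy 1.17.1, pandas 2.3.3 and numpy 2.4.6 under Python 3.11.15. The scoring was tested on simulated peaks: 200 of 200 placed ends and 200 of 200 placed bodies were found. Named genes were those with an end or body peak, the 3 closest and 3 farthest others, the longest and shortest, cluster ends, 4 of known role and the listed genes, some of which are not reported here. Members and lists were chosen with earlier results of these data known. Alternatives were other windows, overlaps, trims, cluster gaps and wide peaks only.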

Additional observations from a re-analysis of the deposited data

How the results depend on the processing

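Of 29 alternatives computed, 18 stayed close to the reported value (counts within 1.5 times, densities and distances within its 95% interval) and 11 moved. With only the wider peaks 4 members had an end peak (3.28%, against 66.7% of all genes), at the edge of the range for counts. Members with an end peak numbered 3 with windows of 250 bp, 21 with windows of 2000 bp and 3 with an overlap of at least 200 bp, in place of 6; the share of all genes was then 68.8%, 79.7% and 69.4%, against 2.46%, 17.2% and 2.46% of members. Vmn1r and Olfr genes together numbered 141 with 2000 bp and 36 with only peaks wider than the median, in place of 65. The share of all genes was 79.7% and 66.7% with these 2 settings, in place of 71.4%. Listed starts with a peak numbered 7 with 2000 bp, in place of 1, an alternative added after seeing the data. The share of all genes' listed starts was not computed for that window, so this count has no background beside it. With only the wider peaks, which leaves fewer peaks, densities were 12.5 per Mb in bodies and 23.5 between members, and the median distance was 13.7 kb. Measured from listed starts that distance was 15 kb. Allowing neighbours up to 2 Mb apart, which adds longer gaps, gave 63 per Mb between members, in place of 44.2. With that rule the density exceeds the 51.2 found between genes of all chromosomes, but the DNA between members also holds other protein-coding genes. No paired analysis was possible because the peak list holds no value per library, and for the same reason no replicate could be left out. Depth limits every absence stated here by an unknown amount.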

Other observations

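Receptor pseudogenes inside the clusters held 16 of the 457 peaks between members in their interiors and 2 at their ends. Vmn2r-ps21 on chromosome 5 held 3 of them, of 564 to 823 bp, and Vmn2r-ps111, between Vmn2r88 and Vmn2r89, had 1 of 630 bp at an end. Another 17 peaks between members lay at an end of a protein-coding gene that is no Vmn2r gene, with a median width of 1295 bp, against 583 bp for the 343 at no annotated gene. Of 32 non-coding or other genes inside the clusters 18 had an end peak (56.2%), as had 18 of 114 other pseudogenes (15.8%).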
